A study of Sus scrofa with 85 samples.

Results

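The subject here is a set of 150 genes whose levels followed those of 5 collagen genes across micro-endomyocardial biopsies (micro-EMB). These biopsies are minute pieces of heart wall taken through a catheter, and their fibrous content itself was not measured. The genes were chosen by measured values. Over the 45 usable heart libraries, each gene's level was correlated with the mean of 5 collagen genes, COL1A1, COL3A1, COL1A2, COL5A1 and COL6A3, and the 150 genes with the highest Spearman coefficients were kept. Levels are log2 of CPM plus 1, written log2(CPM+1), where CPM is a gene's count per 1000000 counts of its library. The 5 collagen genes were left out of the set, a mean of at least 3 in heart was required, and the mean in blood could not be above that in heart. Of the 31907 genes counted, 3548 met the level and blood limits, so that the set holds 150 of 3548. For 14 of the 150 no official symbol was at hand.

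The study followed 3 female mixed-breed Yorkshire-Swedish farm pigs (swine 1640, 1644 and 5385), with no genetic modification named, through a balloon occlusion of the distal left anterior descending coronary artery (LAD) lasting 1 h and the reperfusion after it. Biopsies came from the left ventricle at baseline (4 usable libraries), and afterwards from the apical, infarcted region at 0–1 h (5), 1–3 h (9), 2 days (4) and 14 days (7), and from the lateral, non-infarcted region at the same times (3, 3, 4 and 6). Baseline biopsies carry the apical label but were taken before the occlusion, were not aimed at a region, and serve as baseline for both. Venous blood gave 12 usable libraries. All animals were occluded, none underwent a sham procedure, and where a biopsy fell in relation to the infarct border was not known library by library.

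Usable libraries held 3499443 to 16659110 counted reads (median 7761052) in heart. A further 17 of the 62 heart libraries were set aside, 15 for an even profile, in which the top 10 genes took less than 7% of all reads counted, and 2 for a share of over 60%. The libraries of a group come from at most 3 animals, so p-values measure the spread between biopsies and not between animals. On a principal component analysis, 6 of the 45 libraries stood apart on the second component, with scores above 25. They comprised 1 baseline, 4 infarcted (1 at each timepoint) and 1 non-infarcted (1–3 h) library, 4 of them from swine 1644 and 2 from swine 5385.

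Fibrous tissue of the heart is laid down by fibroblasts, which secrete procollagens, trim and cross-link them outside the cell, and embed the fibres in proteoglycans, elastic microfibrils and adhesive glycoproteins. In the healthy ventricle this tissue forms thin sheets around muscle cells and thicker layers beneath the endocardium, around vessels and in the valves. After infarction, fibroblasts multiply and become secretory, and the dead muscle is replaced by a collagen scar over weeks.

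The genes were compared with marker genes of several cell types, by the same coefficients that chose them, so that the values here are a description. Of 13 fibroblast markers measured at a mean of at least 3, 4 were members: PDGFRA, a growth factor receptor that marks fibroblasts, and the matrix genes LUM, DCN and DPT. None of the smooth muscle (8 measured), pericyte (5), endothelial (8), cardiomyocyte (9) or macrophage (7) markers was a member. The median correlation with the 5 collagen genes was 0.602 for the 11 fibroblast markers other than COL1A1 and COL3A1, which belong to the rule. It was −0.071 for smooth muscle, −0.205 for pericyte, −0.198 for endothelial and −0.571 for cardiomyocyte markers, and all 9 cardiomyocyte markers were below 0. Macrophage markers were also on the positive side, with a median of 0.522 and all 7 above 0, but only 5 of the 7 met the limits and could have been members. In bulk libraries, fewer cells of a type and less RNA per cell cannot be told apart.

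Promoters are shown because the genes moved together across libraries, and because the set's windows were richer in GC boxes than promoters at large. The windows were read from RefSeq's annotation of Sscrofa11.1, and all but 19 of the 150 genes had one (250 bases before to 50 after the annotated start). The letters GGGCGG, the core of a GC box, were found on either strand in 67.2% of the set's windows and in 50.6% of 19530 protein-coding windows. Median GC content was 66.0% against 58.7%. The background included genes that did not meet the level limit in heart, and genes at like levels were not counted apart. Differences from it therefore cannot be credited to the set's link with the 5 collagen genes. The set lay below the background for TATAAA (5.34% against 10.9%), CCAAT (29.8% against 35.4%), TGANTCA (3.82% against 6.05%), CACCTG (15.3% against 22.5%), CAGACA (12.2% against 15.1%) and TGACGT (3.82% against 8.63%), and the CArG box, the binding motif of serum response factor, was in 0% of the set and 1.53% of all windows. Each motif was counted on its own, so a window can hold several, and the CArG box (CC, a run of A or T, then GG) can include the letters TATAAA. A match is a description of letters and not a binding site. The 4 sequences below are the 150 bases before the start of the 4 highest-ranked members that hold GGGCGG there, written along the gene's strand, with that motif (CCGCCC on the other strand) in capitals. These members have ranks 1, 5, 10 and 11, and those ranked between them had no match there or no window.
COL5A2, chr15:93981132-93981281, minus strand: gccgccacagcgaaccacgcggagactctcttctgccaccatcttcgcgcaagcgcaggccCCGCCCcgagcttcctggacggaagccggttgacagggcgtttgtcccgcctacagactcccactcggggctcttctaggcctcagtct
LOX, chr2:125607027-125607176, minus strand: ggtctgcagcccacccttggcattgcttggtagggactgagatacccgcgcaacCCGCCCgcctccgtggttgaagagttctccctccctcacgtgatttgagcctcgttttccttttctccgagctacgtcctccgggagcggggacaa
FKBP10, chr12:20881605-20881754, minus strand: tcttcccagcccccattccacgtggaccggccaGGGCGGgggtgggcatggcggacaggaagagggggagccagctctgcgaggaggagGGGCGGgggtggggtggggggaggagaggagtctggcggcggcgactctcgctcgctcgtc
COL16A1, chr6:88243719-88243868, minus strand: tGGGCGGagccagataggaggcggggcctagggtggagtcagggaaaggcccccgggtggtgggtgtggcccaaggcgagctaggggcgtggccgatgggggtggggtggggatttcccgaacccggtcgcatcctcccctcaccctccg

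In the genome, members were spread over 19 chromosomes, with 16 on chromosome 6 and 13 on chromosome 2. Neighbours without another annotated protein-coding gene between them were DCN and LUM on chromosome 5 (91678601-91713925 and 91748871-91756381), FMOD and PRELP on chromosome 9, EVC and EVC2 on chromosome 8, and HDLBP, SEPTIN2 and FARP2 in a row on chromosome 15. COL5A2 on chromosome 15 lies next to COL3A1, 1 of the 5 collagen genes of the rule. Of these neighbours, HDLBP (minus strand, 139957703-140025336) and SEPTIN2 (plus strand, 140023836-140058291) overlap. For 21 members the annotated span overlaps that of another protein-coding gene, among them COL5A2 with WDR75 and TNXB with ATF6B. The deposited column names carry the code that featureCounts uses for counting without strand, and no other source used here states the setting, so the counts of these genes are less certain.

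Correlations with the 5 collagen genes ran from 0.974 for COL5A2 to 0.658 for ALDH1A3 (median 0.763). These chose the genes and are given as a description. At the lower edge, SLC4A2 had 0.6599 and ALDH1A3 0.6582, while the first genes outside were MATN2 at 0.658 and PDXK at 0.6547, so that the edge of the list is not a step. The genes also went together pairwise, with a median coefficient of 0.663 and all 11175 pairs above 0. Centred on the mean of each region and timepoint, the median coefficient was 0.777, and within swine 1640, 1644 and 5385 it was 0.671, 0.833 and 0.684. All these coefficients come from the libraries that chose the genes and describe the set only. In the 15 heart libraries with an even profile, which the rule did not use, all but 21 of the 150 coefficients were above 0 with a median of 0.521, while the 3398 other genes that met the limits had a median of 0.096. SPARC (0.929), PRELP (0.918), COL6A1 (0.914) and MMP2 (0.904) kept high coefficients there, and COL6A6 (−0.075) and ADAMTS2 (0.032) did not. In blood the set had a median of 0.365, close to the 0.336 of the other genes.

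**Figure D1:**
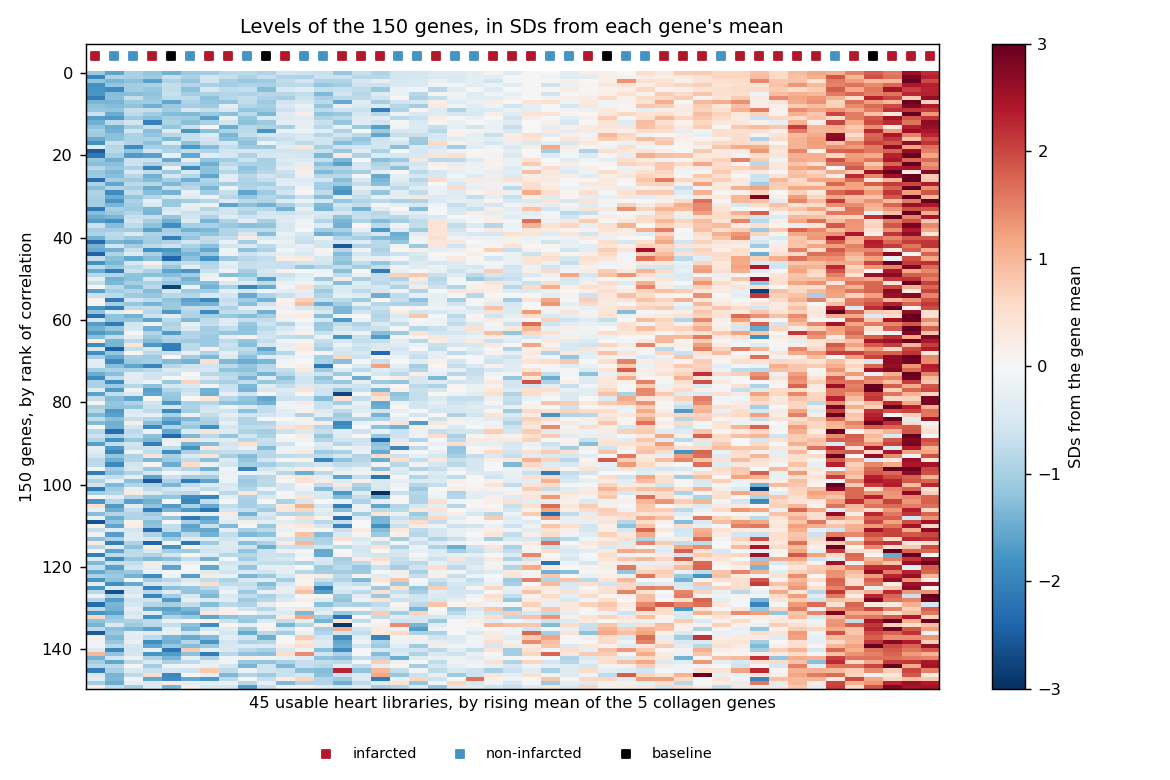
Levels of the 150 genes (vertical axis, by rank of correlation) in the 45 usable heart libraries (horizontal axis, by rising mean of the 5 collagen genes), coloured by SDs from each gene's mean, with squares for infarcted, non-infarcted and baseline libraries. Most genes pass from blue to red from left to right, and libraries of all 3 kinds lie at both ends.

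The set's mean level ran from 4.35 to 7.37 log2(CPM+1) over the 45 libraries (median 5.46), and from 2.64 to 3.92 in blood. Its share of all counts was 0.594% to 6.87% in heart (median 1.23%) and 0.272% to 0.41% in blood. In single genes, the span between the lowest and the highest heart library had a median of 4.27 log2 units. APOE, a lipid carrier made by macrophages and other cells, had the widest span (1.32 to 10.03), followed by ELN (4.73 to 13.16), which codes for elastin, and SFRP1 (1.66 to 9.39), a secreted WNT antagonist. The narrowest spans were those of MIA3 (6.83 to 8.09), needed to load procollagen into transport vesicles, and of the cytoskeletal gene CAMSAP2 and the chromatin gene MORC4. Heart exceeded blood by a median of 2.35, and by less than 0.5 for 18 members, among them PPIB with 0.04.

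At the top of the order were 5 of the 6 libraries that stood apart on the second component, with set means of 6.83 to 7.37. The sixth, the infarcted 2-day library of swine 5385, lay at 5.71. In these 6 libraries the summed cardiomyocyte markers, such as myosin and troponin genes, had a median of 8.63 log2(CPM+1), against 15.7 in the other 39, and 6.94 in blood, so that biopsies labelled as ventricle held muscle transcripts at a level nearer to blood than to the other heart libraries. Their macrophage markers summed to 9.09 against 7.29 and their endothelial markers to 8.66 against 9.81. The set's mean had a coefficient of −0.554 with summed cardiomyocyte markers over the 45 libraries, −0.366 over the 39, and 0.631 with summed macrophage markers over the 45. It had −0.048 with the total count and −0.292 with the share held by the 10 most counted genes. All are Spearman coefficients of values from the same libraries, and the part that muscle content had in the results below was not tested.

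**Figure D2:**
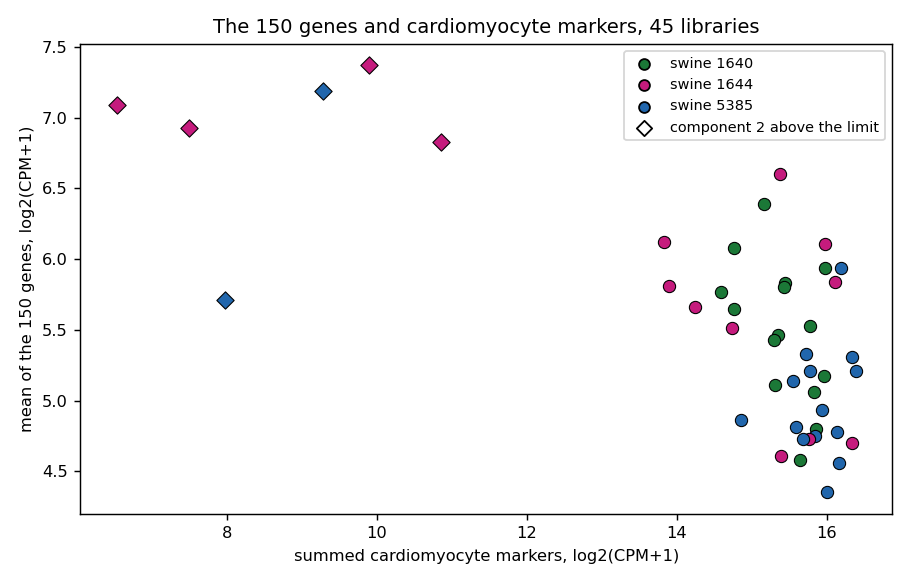
Mean of the 150 genes (vertical axis, log2(CPM+1)) against summed cardiomyocyte markers (horizontal axis, log2(CPM+1)) in the 45 usable heart libraries, coloured by swine, with diamonds for the 6 libraries above 25 on the second component. The diamonds lie at the left, with a median of 8.63 for cardiomyocyte markers, and 5 of the 6 have the highest set means.

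Animals also differed in level. The set's mean had a median of 5.53 in swine 1640 (15 libraries), 5.98 in swine 1644 (14) and 5.03 in swine 5385 (16). Swine 1644 had the widest range, 4.61 to 7.37, and libraries of all 3 animals overlapped.

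By region and timepoint, the set's mean was 4.56, 4.78, 5.80 and 6.93 in the 4 baseline libraries. In the infarcted region it was 4.93, 5.51, 5.65, 5.77 and 7.19 at 0–1 h, 4.58 to 7.09 (median 4.86) at 1–3 h, 5.71, 5.94, 6.11 and 6.39 at 2 days, and 5.06 to 7.37 (median 5.31) at 14 days. In the non-infarcted region it was 4.80, 5.21 and 5.81 at 0–1 h, 4.73, 5.33 and 6.83 at 1–3 h, 4.70, 4.81, 5.11 and 5.46 at 2 days, and 4.35 to 6.08 (median 5.55) at 14 days. The regions overlapped at every time but 2 days, when each of the 4 infarcted libraries lay above each of the 4 non-infarcted ones. The 5 collagen genes themselves showed the same order at 2 days, with means of 11.60 to 12.09 in infarcted and 9.61 to 10.63 in non-infarcted libraries.

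**Figure D3:**
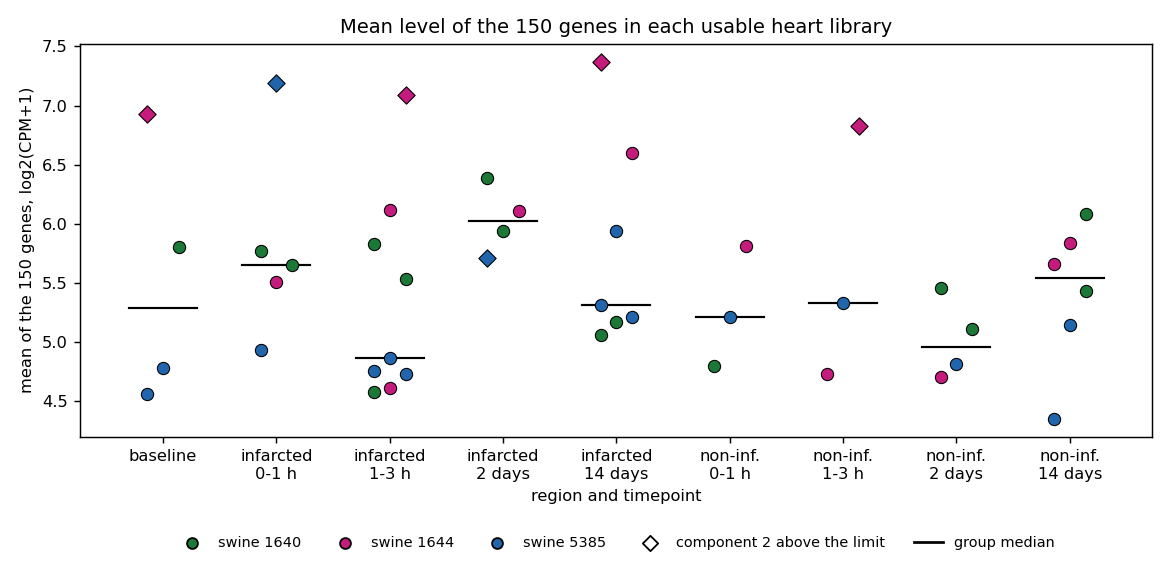
Mean of the 150 genes (vertical axis, log2(CPM+1)) in each usable heart library by region and timepoint (horizontal axis), coloured by swine, with group medians as bars and diamonds for libraries above 25 on the second component. The 2-day groups do not overlap (5.71 to 6.39 infarcted, 4.70 to 5.46 non-infarcted), while the other groups do.

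The first question was whether the genes changed over time in the infarcted region. None of the 150 was called at an adjusted p of 0.05 or less by edgeR's quasi-likelihood test, over the 17929 genes tested, at 0–1 h, 1–3 h, 2 days or 14 days against baseline, or at 2 days against 14 days. All 150 passed the low-count filter. Of all genes tested, edgeR called 0%, 1.62%, 0%, 0% and 0.00558% in these comparisons. At an unadjusted p under 0.05, 2, 1, 12, 20 and 2 of the 150 were found, against 3.32%, 17.5%, 2.87%, 2.66% and 3.02% of all genes. DESeq2 called 1 of the 150 at 1–3 h, PLAT, a smaller share than the 7.94% of all genes it called there, and none in the other 4, and limma voom called none. The set's median log2 fold changes against baseline were 0.28 at 0–1 h (38 of 150 below 0), −0.01 at 1–3 h (76), 0.34 at 2 days (41) and 0.36 at 14 days (35), beside medians of 0.06, 0.12, 0.01 and 0.07 over all genes. Comparisons with baseline share the same 4 baseline libraries, 1 of which stood apart on the second component. Without the libraries that stood apart, the medians were 0.22, 0.08, 0.88 and 0.39 at the 4 times.

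At 1–3 h, when edgeR called most genes, the members went both ways, and the sign of their median was the same in 9 of 26 alternative fits, over which it ran from −0.28 to 0.46. PLAT codes for tissue plasminogen activator, which starts the dissolution of clots, and was singled out after its values were seen. Its DESeq2 log2 fold change was 2.87 ± 0.76 (SE; adjusted p = 0.00517). It was also among the 2 members called with the 5 collagen genes as a covariate (2.89% of all genes), the 1 called by DESeq2 with swine as a replicate block (8.14%) and the 4 called by DESeq2 without the libraries that stood apart (7.31%). At 2 days against baseline, every infarcted library exceeded every baseline library for 7 members, where 1.28% of all genes did so. These were HTRA1, EMILIN1, BGN, P3H3, GXYLT2, CHPF and a gene without a symbol. BGN had 6.49, 7.14, 7.76 and 7.86 at 2 days and 4.76, 5.61, 6.05 and 6.12 at baseline (edgeR log2 fold change 1.77 ± 0.96, unadjusted p = 0.0734, adjusted p = 1), and HTRA1, a secreted serine protease, had 6.69, 6.91, 7.09 and 7.42 against 5.29, 5.88, 6.34 and 6.56 (1.05 ± 0.42, unadjusted p = 0.0181, adjusted p = 1).

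The second question was the same for the non-infarcted region. None of the 150 was called by edgeR, DESeq2 or limma voom at 0–1 h, 1–3 h, 2 days or 14 days against baseline. edgeR called 0% of the 18185 genes tested in each of the 4. At an unadjusted p under 0.05, 3, 9, 23 and 19 of the 150 were found, against 2.85%, 7.05%, 2.05% and 8.6% of all genes. The median log2 fold changes of the set were −0.29, 0.11, −0.58 and −0.45, beside 0.03, 0.13, −0.02 and 0.04 over all genes, and at 2 days all but 15 of the 150 were below 0. All 23 members past the unadjusted threshold at 2 days, and all 19 at 14 days, were lower than baseline. Without the libraries that stood apart, 1 of the 4 baseline libraries among them, the medians were 0.16, −0.19, −0.07 and 0.04. The median at 2 days thus went from −0.58 to −0.07, so that most of the fall below baseline was not seen without them. That at 14 days was no longer below 0.

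The third question was how the regions differed. None of the 150 was called by edgeR over the 18097 genes tested, averaged over the 4 timepoints or at 0–1 h, 1–3 h, 2 days or 14 days, and neither DESeq2 nor limma voom called any. Of all genes tested, edgeR called 0%, 0%, 0.0663%, 0% and 0%. At an unadjusted p under 0.05, the counts were 81, 3, 2, 41 and 67 of 150, against 3.17%, 0.956%, 3.45%, 3.41% and 5.31% of all genes. The 81, 41 and 67 were all higher in the infarcted region. The set's median log2 fold change was 0.60 averaged over time, with none of the 150 below 0, and 0.60, −0.01, 0.94 and 0.78 at the single times, with 5, 75, 1 and 2 below 0. The medians over all genes were −0.001, 0.04, 0.07, −0.01 and −0.10. Since the genes vary together, 150 signs are not 150 observations. Without the libraries that stood apart the medians were 0.41 averaged over time and 0.11, 0.24, 0.99 and 0.34 at the single times. The 2-day difference was thus as large without them, but swine 5385 then had no usable infarcted library at 2 days. The difference at 0–1 h went from 0.60 to 0.11, and that at 14 days from 0.78 to 0.34. With the 5 collagen genes as a covariate, which takes out what chose the genes, the 2-day median was −0.02. With swine as a replicate block and DESeq2's test, a combination chosen after seeing the data, 15 of the 150 were called for the average over time, all higher in the infarcted region, where 32 of all genes (0.177%) were. The 15 were the matrix genes COL5A2, FN1, BGN, MGP, CCDC80, FNDC1 and AEBP1, the protease MMP2 and the collagen receptor MRC2, the chaperone SERPINH1 and the ribosome-binding RRBP1, the receptor PDGFRA, SFRP1, the actin-binding DBN1 and a gene without a symbol. Their log2 fold changes ran from 0.83 ± 0.23 for SERPINH1 (SE; DESeq2 adjusted p = 0.0465) to 1.69 ± 0.44 for AEBP1 (adjusted p = 0.038), and DBN1 had the lowest adjusted p (1.31 ± 0.30, adjusted p = 0.0162). edgeR with the same block called none.

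**Figure D4:**
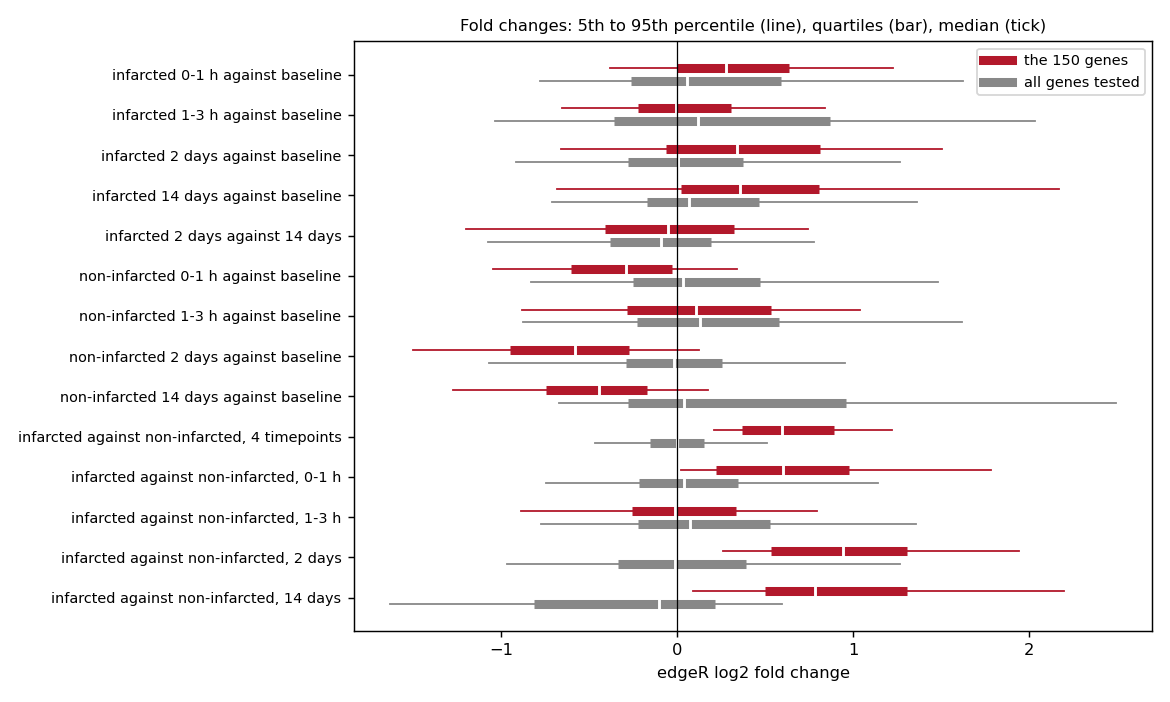
edgeR log2 fold changes (horizontal axis) of the 150 genes and of all genes tested in each of 14 comparisons (vertical axis), with medians as ticks, quartiles as bars and the 5th to 95th percentile as lines. The set lies to the right of all genes in the regional comparisons, except at 1–3 h where its median is −0.01.

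At 2 days the regions were separated gene by gene. For 68 of the 150, every infarcted library exceeded every non-infarcted library, and for none was the reverse true. Of all 18097 genes, 4.57% were separated in the higher direction. The members were chosen for following the 5 collagen genes over these same libraries, and the mean of those genes was itself separated at 2 days. The 68, and the counts by class below, are therefore not independent results and describe a difference that the members share. Both regions had biopsies of each animal, and the set's mean was higher in the infarcted region by 0.88 in swine 1640 (2 libraries each), 1.41 in swine 1644 (1 each) and 0.90 in swine 5385 (1 each). All but 37 of the 150 were higher in all 3 animals, as were 19.4% of all genes. At this time 5 of 9 infarcted and 2 of 6 non-infarcted libraries had been set aside for their profile. Adding libraries can only keep or lower counts of separated genes. With the libraries set aside included, 1 of the 150 was separated, as were 0.0221% of all genes. With the usable libraries scaled by TMM in place of the total, 56 were, beside 2.87% of all genes. Sums of some other transcripts were also compared between the regions at 2 days. The 8 cell cycle genes measured, none at 0 throughout, summed to 6.15 to 7.91 log2(CPM+1) in the infarcted and 4.85 to 5.90 in the non-infarcted libraries, which do not overlap. Macrophage markers (8) summed to 7.59 to 8.82 against 7.07 to 7.89, and cardiomyocyte markers to 7.98 to 15.97 against 15.31 to 16.33, and both overlapped. The cardiomyocyte sum of 7.98 was that of the swine 5385 library, and the other infarcted libraries had 15.16 to 15.97. The part of these transcripts in the 2-day difference was not tested.

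Among the fibrillar collagens, COL5A2, which forms the core of collagen I fibrils, had 9.30, 9.53, 9.61 and 9.81 log2(CPM+1) in the infarcted 2-day libraries and 7.86, 8.01, 8.13 and 8.31 in the non-infarcted ones. The groups did not overlap, and the edgeR log2 fold change was 1.41 ± 0.68 (SE; unadjusted p = 0.0432, adjusted p = 1). At baseline COL5A2 had 7.26, 7.79, 8.82 and 10.45, a range that held all the 2-day values of both regions. COL5A3, the other member of this class, overlapped between the regions (6.05 to 7.91 against 5.75 to 6.35).

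The other collagens in the set were COL6A1, COL6A2 and COL6A6, chains of the beaded filament collagen VI, and the fibril-associated COL14A1 and COL16A1. COL6A1 had 8.96, 9.09, 9.54 and 9.91 in infarcted and 7.33, 7.60, 8.08 and 8.34 in non-infarcted libraries at 2 days. COL6A1 and COL16A1 did not overlap, while COL6A2 (9.07 to 10.28 against 7.83 to 9.17), COL14A1 and COL6A6 did. No basement membrane gene was a member among 15 measured at a mean of at least 3, and their median correlation with the 5 collagen genes was 0.08.

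The 5 proteoglycan members were the small leucine-rich proteoglycans DCN, LUM, BGN, PRELP and FMOD, which coat collagen fibrils and set their spacing. VCAN, a large proteoglycan, had a coefficient of 0.832 but a higher mean in blood than in heart, and so could not be a member. None of the 5 was separated between the regions at 2 days. DCN had 4.97, 7.10, 7.25 and 8.38 in infarcted and 5.90, 6.09, 6.40 and 6.65 in non-infarcted libraries. Of the infarcted libraries, 3 were above all the non-infarcted ones and 1 was below them all. BGN, whose infarcted values are given above, had 5.23, 5.66, 6.24 and 6.55 in the non-infarcted libraries, the highest of which lay just above the lowest infarcted one.

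Elastic fibre and microfibril genes were the largest class, with 10 of 16 measured genes in the set. They include ELN, the fibrillin gene FBN1, the microfibril component MFAP2, the fibulins FBLN1 and FBLN2, and LTBP4, which tethers latent TGF-beta. MFAP2, FBLN2 and EMILIN1 were separated at 2 days. MFAP2 had 4.33, 4.97, 5.16 and 5.22 in infarcted and 2.68, 2.82, 3.02 and 3.45 in non-infarcted libraries (log2 fold change 1.97 ± 0.90). ELN, in contrast, spread from 4.73 to 8.67 in infarcted and from 5.25 to 7.73 in non-infarcted libraries, and its difference of 1.07 was smaller than its SE of 1.21.

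Of the adhesive and matricellular glycoproteins, which link cells to fibres, 8 of 17 measured were members, where 14 of the 17 met the limits (TGFBI, with 0.851, was higher in blood), and SPARC, THBS2, THBS3, FN1 and MATN4 were separated at 2 days. FN1, which codes for fibronectin, had 9.42, 9.89, 9.97 and 10.52 in infarcted libraries. In the non-infarcted ones it had 7.22, 7.33, 7.73 and 8.84, for a log2 fold change of 1.92 ± 1.00 (unadjusted p = 0.0631, adjusted p = 1). Without the libraries that stood apart, DESeq2 called FN1 at 2 days against baseline, a setting added after seeing the data (log2 fold change 2.98 ± 0.67, adjusted p = 0.027), where 0.0332% of all genes were called. SPARC, a collagen-binding protein, had 9.52, 9.73, 9.83 and 9.97 against 7.92, 8.21, 8.38 and 8.54. MGP, an inhibitor of calcification, had 5.94, 8.70, 9.12 and 9.39 against 5.84, 6.01, 6.61 and 7.46, and TNXB had 5.49 to 9.89 against 7.54 to 8.84.

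Collagen synthesis and cross-linking genes had 7 of their 9 members separated at 2 days: LOX, PCOLCE, FKBP10, P3H3, ADAMTS2, PPIB and SERPINH1. LOX, the enzyme that starts collagen and elastin cross-links, had 4.76, 4.81, 4.84 and 5.07 in infarcted and 2.97, 3.02, 3.82 and 4.29 in non-infarcted libraries. SERPINH1, the collagen chaperone HSP47, had 8.46, 8.48, 8.59 and 9.37 against 6.75, 7.41, 7.58 and 7.65, for a log2 fold change of 1.30 ± 0.52 (unadjusted p = 0.0153, adjusted p = 1). FKBP10, another chaperone of procollagen, had 5.18, 5.35, 5.62 and 5.75 against 2.60, 3.01, 3.86 and 4.05. PLOD2, which hydroxylates lysines of collagen telopeptides, overlapped (5.39 to 6.50 against 4.90 to 5.60). Alike were 8 members grouped after their values were seen, all tied to the secretory pathway except PYCR1, an enzyme of proline synthesis. Of these, RRBP1, PYCR1, KDELR3, SURF4, KDELR2, MIA3 and CREB3L1 were separated and CREB3L2 was not.

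Among the proteases, MMP2, HTRA1 and HTRA3 of 4 members were separated. MMP2, a gelatinase, had 7.68, 7.73, 8.11 and 8.31 in infarcted and 6.14, 6.24, 6.69 and 6.80 in non-infarcted libraries (log2 fold change 1.43 ± 0.61). HTRA1 had 6.69, 6.91, 7.09 and 7.42 against 5.57, 5.86, 6.18 and 6.46. MMP23B overlapped (3.93 to 4.90 against 3.58 to 4.40). Of 23 measured TGF-beta and BMP signalling genes 14 met the limits and only FSTL1 and TGFBR3 were members, and both overlapped between the regions. FSTL1, a secreted glycoprotein, had 7.41 to 8.78 against 7.09 to 7.42. PDGFRA had 6.88, 6.95, 6.99 and 7.43 against 5.25, 5.33, 5.60 and 5.64, and so was separated. CCDC80, a matrix protein, had 7.82, 9.07, 9.40 and 9.40 against 6.56, 6.60, 6.94 and 7.42.

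**Figure D5:**
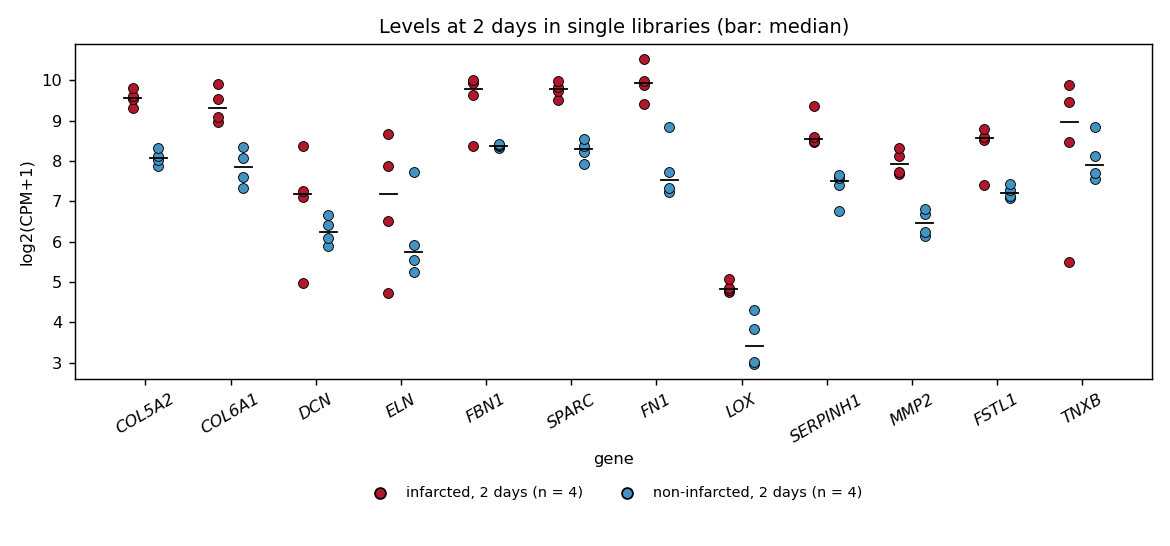
Levels of 12 members (horizontal axis) in log2(CPM+1) (vertical axis) in the 4 infarcted and 4 non-infarcted libraries at 2 days, with medians as bars. COL5A2, COL6A1, SPARC, FN1, LOX, SERPINH1 and MMP2 do not overlap, while single low infarcted libraries of DCN (4.97), ELN (4.73) and TNXB (5.49) fall below all non-infarcted ones.

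These low values came from 1 biopsy. The infarcted 2-day library of swine 5385, which stood apart on the second component, was the lowest of the 4 for 65 members and the highest for 29. For 19 it was below every non-infarcted 2-day library. The other 3 infarcted libraries were the lowest for 35, 12 and 38 members. The library of this biopsy held 3832952 counts, and its 10 most counted genes took 46.68% of them, the largest such share among usable heart libraries. A large share lowers the CPM of the other genes. TNXB (5.49), ELN (4.73), DPT (4.72), LTBP4 (6.86) and SEMA3B (1.95) were lower there than in any other usable heart library. GSN, singled out after its values were seen, had 7.34 against 9.35 to 11.12 in the other 3 infarcted libraries, and MGP 5.94 against 8.70 to 9.39. In the same biopsy RRBP1 had 10.69 against 8.62 to 9.21, PYCR1 5.82 against at most 4.09, SERPINH1 9.37 against 8.46 to 8.59, CREB3L1 6.88 against 4.80 to 5.90 and THBS2 8.25 against 6.91 to 7.48. The mean of the 5 collagen genes was 11.61 in it, between 11.60 and 12.09 in the other 3. Its cardiomyocyte markers summed to 7.98, against 15.16 to 15.97 in the other 3. Its erythroid markers summed to 12.10 against 3.94 to 5.38. A non-infarcted 2-day library had 11.64, and the highest library of every heart group lay between 11.6 and 12.5, so a high erythroid sum was not particular to this biopsy. Its cell cycle genes summed to 7.91 against 6.15 to 6.85. The part of blood, of missing muscle and of the share held by the 10 most counted genes in this biopsy was not tested. Without it, 95 of the 150 were separated at 2 days, where 7.64% of all genes were, and the proteoglycans went from 0 to 3 of 5. Leaving out a library can only keep or raise such counts.

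At 14 days the infarcted libraries spread more widely than at 2 days, with an SD of the set's mean of 0.883 against 0.289. The SD was 0.837 at 0–1 h and 0.866 at 1–3 h. The highest set means at 14 days, 7.37 and 6.6, were both of swine 1644. COL5A2 had 8.02 to 11.18 (median 8.28) in the 7 infarcted libraries, and no member was separated from the non-infarcted region, beside 0.0111% of all genes. ELN reached 13.16 in 1 infarcted 14-day library, and SPARC 11.75. At 0–1 h, only CTDSP2 of the 150 was separated between the regions, a share close to the 0.53% of all genes, and at 1–3 h none was, beside 0.0387% of all genes.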

How the data were processed

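Micro-EMB and venous blood of swine were sequenced as total RNA (SMARTer Pico libraries). Per the labels and the study's methods, the authors aligned reads to Sscrofa11.1 with STAR and assigned them to genes with featureCounts, and they deposited raw counts per gene, not normalized, in a table of all samples. Versions are not given in the sources used here. The column names carry featureCounts' code for unstranded counting.

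Gene names were matched by identifier for 15029 of 31907 genes. CPM, counts per 1000000, were computed from each library's total. Libraries with under 1000000 counts, or whose 10 most counted genes held under 7% or over 60%, were set aside. The members, the gene lists and the tests were chosen with earlier results of these data known. Fits used edgeR 4.0.16 (TMM, quasi-likelihood test) in R 4.3.3 on genes that reached 1 CPM in 20% of libraries or more, with Benjamini-Hochberg adjustment over all genes tested and calls at 0.05. Biological coefficients of variation were 0.664, 0.644 and 0.67. DESeq2 1.42.0, limma 3.58.1, other scalings and filters, left-out libraries, and swine as a replicate block were alternatives. Same-animal libraries deviated together (mean correlation 0.104, against −0.047 between animals), and the animal is given by the labels. The edgeR step was tested on simulated data.

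Named members are the 10 with the highest coefficients, up to 4 per role list by mean level, called members, those at the edge of the list, and those with the widest and narrowest spans. Others are said to be chosen after their values were seen, or are listed as members of a count.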

Additional observations from a re-analysis of the deposited data

Results flagged for a closer look

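Groups of 4 to 10 libraries were screened for a single library far from the rest (Dixon's gap over range at the 95% level) in 12 measures, namely the set's mean, its share of counts and 10 genes. Of 84 group and measure pairs, 8 were marked, all by a highest library, and chance marks about 5% of such pairs. The measures come from the same libraries and go together, so the pairs are not independent and the 5% is only a rough guide.

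The set's share of counts was 5.35% in 1 infarcted 0–1 h library, where the next was 1.76%. It was 4.82% in 1 infarcted 1–3 h library (next 2.43%) and 6.87% in 1 infarcted 14-day library (next 3.23%). Each of these libraries was among those that stood apart on the second component. MMP2 was at 9.0 log2(CPM+1) in 1 baseline library (next 7.17) and at 8.86 in 1 infarcted 0–1 h library (next 7.32). SERPINH1 was at 8.74 in 1 baseline library (next 7.5) and at 9.37 in 1 infarcted 2-day library (next 8.59). That 2-day library was the one of swine 5385, which also stood apart on the second component. APOE was at 10.03 in 1 infarcted 0–1 h library, where the next was 3.16.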

How the results depend on the processing

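Over 14 comparisons, alternative fits gave 418 counts of called members, with several comparisons coming from each fit. Of these counts, 412 were 0 as reported, among them all 278 with a library or an animal left out. In most of the 14 comparisons edgeR called no gene of any kind. A count of 0 members there does not measure how firm the result is. At 1–3 h in the infarcted region, DESeq2 called 1 member (7.94% of all genes), the 5 collagen genes as a covariate 2 (2.89%), DESeq2 with swine as a replicate block 1 (8.14%), and DESeq2 without the libraries that stood apart 4 (7.31%), each a smaller share of the 150 than of all genes. That last setting called 1 at 2 days in the infarcted region (0.0332%), and DESeq2 with the replicate block called 15 for the average between the regions (0.177%). The DESeq2 fits with the block or without libraries were added after seeing the data. With edgeR, the replicate block left every count of called members at 0. The median difference between the regions at 2 days was −0.02 with the 5 collagen genes as a covariate, which takes out what chose the genes.

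Of the 150 members, 93 were kept when only the non-infarcted region and baseline were used, 64 with all sequenced heart libraries and 89 with a minimum mean of 5. The other 10 settings kept 74.0% to 93.3% of them, and leaving out an animal kept 74.0% (without swine 1644) to 84.7%. The count of 68 separated at 2 days was 1 with all sequenced libraries (0.0221% of all genes) and ran from 68 to 107 with a library or an animal left out. The highest was without swine 1640, when the share of all genes rose from 4.57% to 16.7%. These settings were added after seeing the data. A count of separated genes can only stay or rise when libraries are left out, and only stay or fall when they are added. The direction of its changes was therefore fixed, and they do not measure how firm the count is. What else lay behind them, and the cause of the changes in membership, was not tested. With groups of 3 to 9 libraries and biological coefficients of variation of 0.644 to 0.67, a miss of the threshold does not show that levels were equal.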
